A study of Mus musculus with 19 samples.

Results

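Fatty acid uptake, storage and beta-oxidation were followed through 35 named genes in the left ventricle of mice after aortic banding or sham surgery. The genes cover uptake, activation, the carnitine shuttle, malonyl-CoA, beta-oxidation, electron transfer, uncoupling and triglyceride turnover. A gene was measured where a probe set carried its symbol and no other, and was represented by its brightest probe set, that of the highest mean over the 19 arrays. By that rule 32 of the 35 were measured, out of 18194 genes named on the array. All 32 also passed the filter on low signals (log2 above 4 in at least 5 arrays), which left 10732 genes for testing. Acsl1, Cpt1b and Ucp2 had no probe set of exactly 1 symbol, so the activation step, for which Acsl1 stood alone, has no value here.

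The 3 groups held male C57BL/6 mice operated at 7 weeks of age, with the tissue taken 4 weeks later and no genetic change or drug named for any of them. In 5 mice the operation was a sham. The other mice were banded, an operation that narrows the aorta so that the left ventricle works against a higher load; 7 of these were labelled as without heart failure and 7 as with heart failure. Each mouse gave 1 array of RNA from its left ventricle, freed of the atria and the right ventricle. No criterion for heart failure is stated in the labels. The index of lung weight over tibia length in the labels ran from 17.9 to 24.6 with heart failure, from 8.52 to 10.8 in banded mice without it and from 8.2 to 9.38 in sham mice. The index for the left ventricle was 8.09 to 9.75, 6.42 to 7.59 and 4.82 to 5.47 in the same order, without overlap.

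In the heart, long-chain fatty acids are a main fuel. They are released from circulating triglyceride by lipoprotein lipase, enter the cell through CD36 and fatty acid transport proteins, and travel in the cytosol on fatty acid binding proteins. After activation to acyl-CoA they are carried into the mitochondrion by the carnitine shuttle, whose entry enzyme is inhibited by malonyl-CoA, and are shortened there in repeated cycles of dehydrogenation, hydration, dehydrogenation and thiolysis. Electrons from the acyl-CoA dehydrogenases pass through electron transfer flavoprotein to the respiratory chain, and acyl-CoA that is not burnt can be stored as triglyceride in lipid droplets.

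Some measures of the arrays differed within groups, and some moved with the groups. A probe set for 18S ribosomal RNA was high (9.03 to 11.8) in sham mice 1 to 3 and in banded mice 5 to 7 without heart failure, and low (5.14 to 7.62) on the other 13 arrays, which include all 7 with heart failure. The difference between the 3' and the 5' actin control, a sign of RNA integrity, was 0.943 to 1.02 in sham mice and lower in all banded mice (0.672 to 0.898 without and 0.661 to 0.905 with heart failure). That difference and the surgery cannot be told apart. Animal names in the labels fall into 3 series, here called A, B and C, each with mice of every group. The arrays of high 18S signal were those of the series A mice in sham and in banded mice without heart failure. The defining markers of cardiomyocytes were present, with a summed log2 signal of 18.91 to 19.02 in sham, 18.95 to 19.02 after banding without heart failure and 18.86 to 19 in the failing hearts. Of the 15 cardiomyocyte markers, limma called 4 lower and 4 higher with heart failure than in sham (26.7% each). Of all genes, 18.9% were lower and 20.4% higher in that comparison. Fibroblast markers rose there in 8 of 10 (80%). Their sum was 15.28 to 15.91 in sham, 15.55 to 16.17 after banding without heart failure and 16.14 to 16.57 with it. Atrial markers varied widely although the atria had been removed: Myl7 ran from 7.53 to 12.67 in sham, from 8.86 to 13.75 without and from 2.30 to 13.89 with heart failure. Of the 5 atrial markers tested, Nppa was called higher in both comparisons with sham and Myl7 lower with than without heart failure, while Bmp10 was at or under the filter level on all arrays. By their means all 5 lay above sham without heart failure, while with it 3 lay below sham and 2 above. The part of the fibroblast and atrial markers in the changes below was not tested. In whole tissue, fewer cells of a type and less RNA per cell cannot be told apart.

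Fatty acid genes fell after banding, in 10 members without and 21 with heart failure, and 8 members were lower with than without it. Without heart failure 10 of the 32 measured members were lower than in sham and 1, Dgat1, was higher, at a limma adjusted p under 0.05. Over all genes tested, 6.56% were lower and 10.9% higher by the same call. The median log2 difference of the members was -0.22, against 0.02 over all genes. In 8 members every banded mouse without heart failure lay below every sham mouse, as in 3.04% of all genes; none lay wholly above sham, as 4.63% of all genes did. With arrays set to equal medians 16 members were lower, and 9.78% of all genes. With heart failure 21 of the 32 members were lower than in sham and 0 were higher in the limma fit; 0 were higher at an unadjusted p under 0.05 as well. The background was 18.9% lower and 20.4% higher. Here the median of the members was -0.39, against 0.01 over all genes, and in 18 members the 2 groups did not overlap, as in 9.06% of genes; 0 members lay wholly above sham, against 8.5% of genes. Both comparisons rest on the same 5 sham arrays.

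Between the banded groups, 8 members were lower with heart failure than without and 0 were higher by limma's adjusted p; at an unadjusted p under 0.05, 13 were lower and 0 higher. Of all genes, 5.65% were lower and 3.83% higher. The 8 were Cpt2, Acacb, Mlycd, Acaa2, Eci1, Decr1, Etfb and Dgat2. The median of the 32 members was -0.16, against -0.01 over all genes, and 5 members did not overlap between the banded groups, as in 1.8% of genes. All 5 were lower with heart failure, while 0.839% of genes were wholly higher. This comparison is also the test of whether the change from sham differed between the banded groups.

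**Figure D1:**
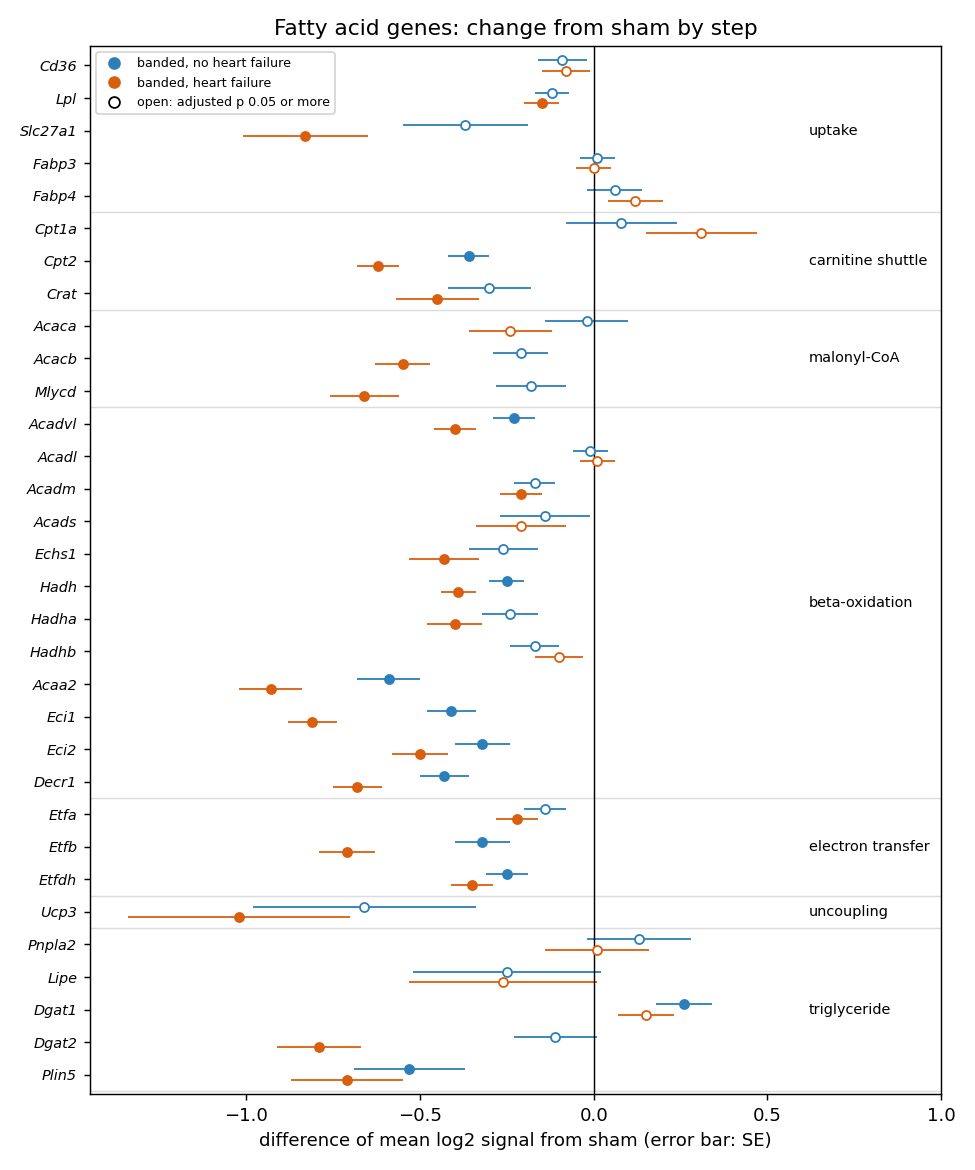
Difference of the mean log2 signal from sham for each of the 32 measured members, ordered by step, in banded mice without (blue) and with (orange) heart failure; the bars are standard errors of the limma fit, and open points have an adjusted p of 0.05 or more. Most orange points lie left of their blue points in the beta-oxidation and electron transfer steps, while Fabp3 and Acadl lie close to 0.

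At the uptake step 0 of 5 members were called in banded mice without heart failure (1 was lower at an unadjusted p under 0.05). With heart failure 2 of 5 fell. The shares of all genes were 6.56% lower and 10.9% higher without heart failure, and 18.9% lower with it. Slc27a1, a fatty acid transport protein of the plasma membrane, had the larger fall. Its log2 signal was 9.16, 9.07, 9.59, 9.93 and 9.13 in the sham mice. It ran from 8.62 to 9.51 (median 8.89) in banded mice without heart failure and from 8.35 to 9.12 (median 8.48) with heart failure. Of the 7 mice with heart failure, 6 lay at 8.62 or below and mouse 5 stood at 9.12, inside the sham range. With heart failure the gene fell by 0.83 ± 0.18 (SE) on the log2 scale, which is 1.78-fold (limma adjusted p = 0.0012). Without heart failure its difference from sham was -0.37 ± 0.18 (adjusted p = 0.165). Between the banded groups it was -0.46 ± 0.16 (adjusted p = 0.0782). Without mouse 5 of the heart failure group it passed the threshold, at -0.56 ± 0.15 (adjusted p = 0.0289). It was smaller, at -0.21, among the arrays of low ribosomal RNA signal, which include all 7 with heart failure. In banded mice without heart failure, Slc27a1 was 8.62 to 8.89 on arrays of low and 9.22 to 9.51 on arrays of high ribosomal RNA signal. A second probe set for Slc27a1 was called lower in both comparisons with sham, at -0.57 and -0.94.

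Lpl, the lipase that frees fatty acids at the capillary wall, moved little. Sham mice had 15.45, 15.53, 15.51, 15.47 and 15.42, banded mice without heart failure 15.29 to 15.40 (median 15.35) and those with heart failure 15.22 to 15.41 (median 15.34). Both banded groups lay wholly below sham, by margins of hundredths of a log2 unit. With heart failure Lpl fell by 0.15 ± 0.05 (adjusted p = 0.0156), a difference of -9.87%. That call was lost in the 13 arrays of the low 18S set (-0.12, adjusted p = 0.211) and on renewed quantile normalization (-0.10, adjusted p = 0.0892). It also rests on the brighter of 2 probe sets: the mean of both gave -0.11 (adjusted p = 0.151) and the other, which varied more, -0.07 (adjusted p = 0.572).

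Cd36, the main fatty acid transporter of cardiomyocytes, was not called on its brightest probe set, at -0.09 ± 0.07 without and -0.08 ± 0.07 with heart failure. Sham mice lay between 14.34 and 14.47 and mice with heart failure between 14.17 and 14.70, the top value being that of mouse 5. Another of its 3 probe sets was called lower in both comparisons, at -0.31 (adjusted p = 0.0359) and -0.45 (adjusted p = 0.00137), so the call for Cd36 depends on the probe set. Fabp3, the fatty acid binding protein of heart muscle, stayed within 15.40 to 15.59 on all 19 arrays, and its difference from sham was 0.01 ± 0.05 without and 0.00 ± 0.05 with heart failure. Fabp4, the binding protein of adipocytes and capillary endothelium, was at 0.06 ± 0.08 and 0.12 ± 0.08, likewise not called. Endothelial markers were called higher in 2 of 12 without and 4 of 12 with heart failure (16.7% and 33.3%, beside 10.9% and 20.4% of all genes), with a summed signal of 13.47 to 13.59 in sham, 13.66 to 13.94 and 13.48 to 13.88. Of 12 macrophage and leukocyte markers limma called 0 in each comparison, and at an unadjusted p under 0.05 2 were lower with heart failure than in sham.

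In the carnitine shuttle Cpt2 fell in each comparison, Crat fell with heart failure, and Cpt1a was not called. Cpt2, the inner membrane enzyme that turns acylcarnitine back into acyl-CoA, stood at 12.88, 12.77, 12.75, 13.06 and 12.78 in sham. Its signal ran from 12.40 to 12.58 (median 12.49) in banded mice without heart failure and from 12.16 to 12.29 (median 12.25) with it. The 3 groups did not overlap at any point and were ordered sham, banded without and banded with heart failure. Cpt2 fell by 0.36 ± 0.06 without heart failure (limma adjusted p = 0.000324) and by 0.62 ± 0.06 with it (adjusted p = 2.5e-07), the latter 1.53-fold. Between the banded groups it fell by 0.25 ± 0.05 (adjusted p = 0.00664). These 3 calls held under each alternative that was run.

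Crat, which exchanges short acyl groups between carnitine and coenzyme A, fell by 0.45 ± 0.12 with heart failure (adjusted p = 0.00686), a difference of -26.9%. The sham values were 12.06, 12.08, 12.15, 12.60 and 12.54, and all 7 mice with heart failure lay below them (11.61 to 12.01, median 11.85). The upper pair of sham values belongs to the low 18S set, in which Crat was also the higher among the banded mice without heart failure. With the array set as a block its fall was larger, -0.72 ± 0.08 with heart failure (adjusted p = 3.31e-06) and -0.37 ± 0.07 without (adjusted p = 0.000927), and the difference between the banded groups passed as well (-0.35 ± 0.07, adjusted p = 0.00657). Both other probe sets of Crat were called lower in each comparison with sham, at -0.40 and -0.52 without and -0.66 and -0.67 with heart failure. Cpt1a, the liver form of the entry enzyme, also expressed in heart, was the only measured shuttle gene with a mean above sham. Its 5 sham values were widely spread, at 8.54, 8.30, 8.78, 9.39 and 8.74, and mice with heart failure had 8.79 to 9.45 (median 9.05). The difference of 0.31 ± 0.16 did not pass (adjusted p = 0.13). Without sham mouse 4 it did, at 0.47 ± 0.14 (adjusted p = 0.0108). Among the arrays of low 18S signal, which hold all 7 mice with heart failure, it was -0.01 ± 0.21 (adjusted p = 0.984), and within the 3 series of animal names Cpt1a differed by 0.53, -0.25 and 0.26.

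Of the 3 genes that set malonyl-CoA, the inhibitor of carnitine entry, Acacb and Mlycd were lower with heart failure than in either other group, and Acaca was not called. Acacb makes malonyl-CoA at the mitochondrial surface. Its sham values were 11.58, 11.46, 11.45, 11.72 and 11.60, against 11.24 to 11.54 (median 11.31) without heart failure and 10.79 to 11.22 (median 10.99) with it. Mice with heart failure lay below every mouse of the other groups. The fall was 0.55 ± 0.08 against sham (limma adjusted p = 1.75e-05) and 0.34 ± 0.07 against banded mice without heart failure (adjusted p = 0.00586). The difference without heart failure, -0.21 ± 0.08, missed the threshold (adjusted p = 0.0646). It passed under 5 alternatives, among them the array set as a block (-0.22, adjusted p = 0.0426) and the series of animal names as a block (-0.23, adjusted p = 0.0271). The step between the banded groups missed the threshold among arrays of the low 18S set (-0.35, adjusted p = 0.0632).

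Mlycd, which breaks malonyl-CoA down again, moved the same way as Acacb. The sham mice had 9.59, 9.44, 9.52, 10.02 and 9.77, the banded mice without heart failure 9.12 to 9.73 (median 9.49). With heart failure the 7 values were 8.93 to 9.15 (median 8.95), a narrower range than in either other group. All 7 were below sham, while mouse 3 of the other banded group, at 9.12, fell within their range. Mlycd fell by 0.66 ± 0.10 against sham (adjusted p = 5.18e-05) and by 0.48 ± 0.09 against banded mice without heart failure (adjusted p = 0.00456). Without heart failure the difference from sham was -0.18 ± 0.10 (adjusted p = 0.238). Acaca, the cytosolic carboxylase that feeds fatty acid synthesis, was at -0.02 ± 0.12 without and -0.24 ± 0.12 with heart failure.

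Of the 12 beta-oxidation enzymes, 6 fell without heart failure, 9 fell with it, and 3 were lower with than without heart failure. These are 50%, 75% and 25%, beside 6.56%, 18.9% and 5.65% of all genes. None of the 12 was called higher by limma, nor at an unadjusted p under 0.05, in these 3 comparisons. Their median differences were -0.24, -0.40 and -0.16, against 0.02, 0.01 and -0.01 over all genes. Acaa2, the mitochondrial thiolase that releases acetyl-CoA, had the largest fall of the step against sham. Its log2 signal was 13.85, 13.85, 13.83, 14.09 and 13.94 in sham. It lay between 13.05 and 13.54 (median 13.40) in banded mice without heart failure and between 12.74 and 13.11 (median 13.07) with it. Both banded groups were wholly below sham and overlapped each other only through mouse 6 of the group without heart failure, at 13.05. Acaa2 fell by 0.59 ± 0.09 without heart failure (adjusted p = 0.000308) and by 0.93 ± 0.09 with it, 1.91-fold (adjusted p = 5.04e-07). The step between the banded groups, -0.34 ± 0.08 (adjusted p = 0.0169), did not pass on the mean of its 3 probe sets (-0.30, adjusted p = 0.0693).

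Eci1, the isomerase that shifts a bond of unsaturated acyl-CoA into place, was 13.08, 13.05, 13.06, 13.20 and 13.07 in sham. It was 12.55 to 12.85 (median 12.68) without and 12.10 to 12.58 (median 12.27) with heart failure. Every banded mouse was below every sham mouse, and of the mice with heart failure only mouse 3, at 12.58, reached the range of the other banded group. The falls were 0.41 ± 0.07 (adjusted p = 0.00113), 0.81 ± 0.07 (adjusted p = 2.22e-07) and, between the banded groups, 0.40 ± 0.07 (adjusted p = 0.00276).

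Decr1, the reductase for dienoyl-CoA, stood at 13.21, 13.27, 13.40, 13.31 and 13.26 in sham mice, at 12.76 to 13.03 (median 12.86) without heart failure and at 12.35 to 12.76 (median 12.63) with it. The groups did not overlap, although the banded groups met at 12.76 when rounded. Decr1 fell by 0.43 ± 0.07 without heart failure (adjusted p = 0.000381), by 0.68 ± 0.07 with it (adjusted p = 6.2e-07) and by 0.26 ± 0.06 between the banded groups (adjusted p = 0.0167). Eci2, an isomerase found in mitochondria and peroxisomes, fell by 0.32 ± 0.08 and 0.50 ± 0.08 against sham, both groups being wholly below the sham range of 11.77 to 11.92. Its difference between the banded groups, -0.18 ± 0.07, did not pass (adjusted p = 0.108) unless mouse 5 with heart failure was left out (-0.23, adjusted p = 0.0227).

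Of the 4 acyl-CoA dehydrogenases, which open each cycle, Acadvl and Acadm were called lower with heart failure and Acadl and Acads were not. Acadvl, for very long chains, was 13.78 to 13.95 in sham, 13.52 to 13.70 without and 13.28 to 13.62 with heart failure, and both banded groups lay below sham. It fell by 0.23 ± 0.06 (adjusted p = 0.00908) and by 0.40 ± 0.06 (adjusted p = 3.09e-05). Acadm, for medium chains, fell with heart failure by 0.21 ± 0.06 (adjusted p = 0.0117), from 14.27 to 14.50 in sham to 14.02 to 14.20. That call was lost on renewed quantile normalization (-0.15, adjusted p = 0.0728). Acadl, the long-chain enzyme, was not called and lay within 0.02 of sham in both comparisons (-0.01 ± 0.05 and 0.01 ± 0.05), its 19 values running from 14.60 to 14.86.

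Acads, for short chains, depended on the array set. Its sham values were 10.91, 10.96, 10.87, 11.43 and 11.40, the last pair from the low 18S set, and the banded mice without heart failure split the same way. The difference with heart failure was -0.21 ± 0.13 (adjusted p = 0.208). With the array set as a block it was -0.51 ± 0.07 (adjusted p = 2.73e-05), and within the low set alone -0.51 ± 0.09 (adjusted p = 0.00172).

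Of the enzymes that complete the cycle, Hadh, the short-chain hydroxyacyl-CoA dehydrogenase, fell by 0.25 ± 0.05 without (adjusted p = 0.00334) and by 0.39 ± 0.05 with heart failure (adjusted p = 1.3e-05), with no overlap with the sham range of 15.09 to 15.25. The call without heart failure was lost with the actin difference as a covariate (-0.16 ± 0.07, adjusted p = 0.138) and in the low 18S set (-0.20 ± 0.08, adjusted p = 0.208). Echs1, the short-chain hydratase, fell with heart failure by 0.43 ± 0.10 (adjusted p = 0.00201), and all 7 mice, at 12.33 to 12.89, were below the lowest sham value of 12.95. In the low 18S set the Echs1 call was lost (-0.35, adjusted p = 0.0729). Hadha and Hadhb encode the subunits of the trifunctional protein, which handles long chains. Hadha fell with heart failure by 0.40 ± 0.08 (adjusted p = 0.000938) and missed the threshold without it (-0.24 ± 0.08, adjusted p = 0.0543). Blocked by array set, Hadha passed without heart failure as well (-0.28 ± 0.06, adjusted p = 0.00197) and between the banded groups (-0.27 ± 0.06, adjusted p = 0.00934). The brightest probe set of Hadhb was not called (-0.17 ± 0.07 and -0.10 ± 0.07). Both other Hadhb probe sets were called lower with heart failure, so the 2 subunits are not shown to differ. Their differences were -0.22 ± 0.08 (mean signal 14.34) and -1.09 ± 0.38, the latter from a dim probe set (mean signal 5.18).

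All 3 electron transfer genes fell with heart failure, and in each of them every mouse of that group lay below every sham mouse. Among all genes tested, 18.9% were called lower in this comparison and 9.06% lay wholly below sham. Etfb, the beta subunit of electron transfer flavoprotein, was 13.29, 13.29, 13.45, 13.24 and 13.08 in sham, 12.82 to 13.12 (median 12.93) without heart failure and 12.37 to 12.75 (median 12.62) with it. Only sham mouse 5, at 13.08, lay within the range of the banded mice without heart failure. Etfb fell by 0.32 ± 0.08 (adjusted p = 0.00836), by 0.71 ± 0.08 (adjusted p = 1.64e-06) and, between the banded groups, by 0.39 ± 0.07 (adjusted p = 0.00416). Etfdh, which passes the electrons on to ubiquinone, fell by 0.25 ± 0.06 and 0.35 ± 0.06 against sham. For Etfdh the dimmer of its 2 probe sets gave 0.09 without heart failure, opposite in sign and not called. Etfa, the alpha subunit, fell with heart failure by 0.22 ± 0.06 (adjusted p = 0.0072), a call lost on renewed quantile normalization (-0.15, adjusted p = 0.0579).

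**Figure D2:**
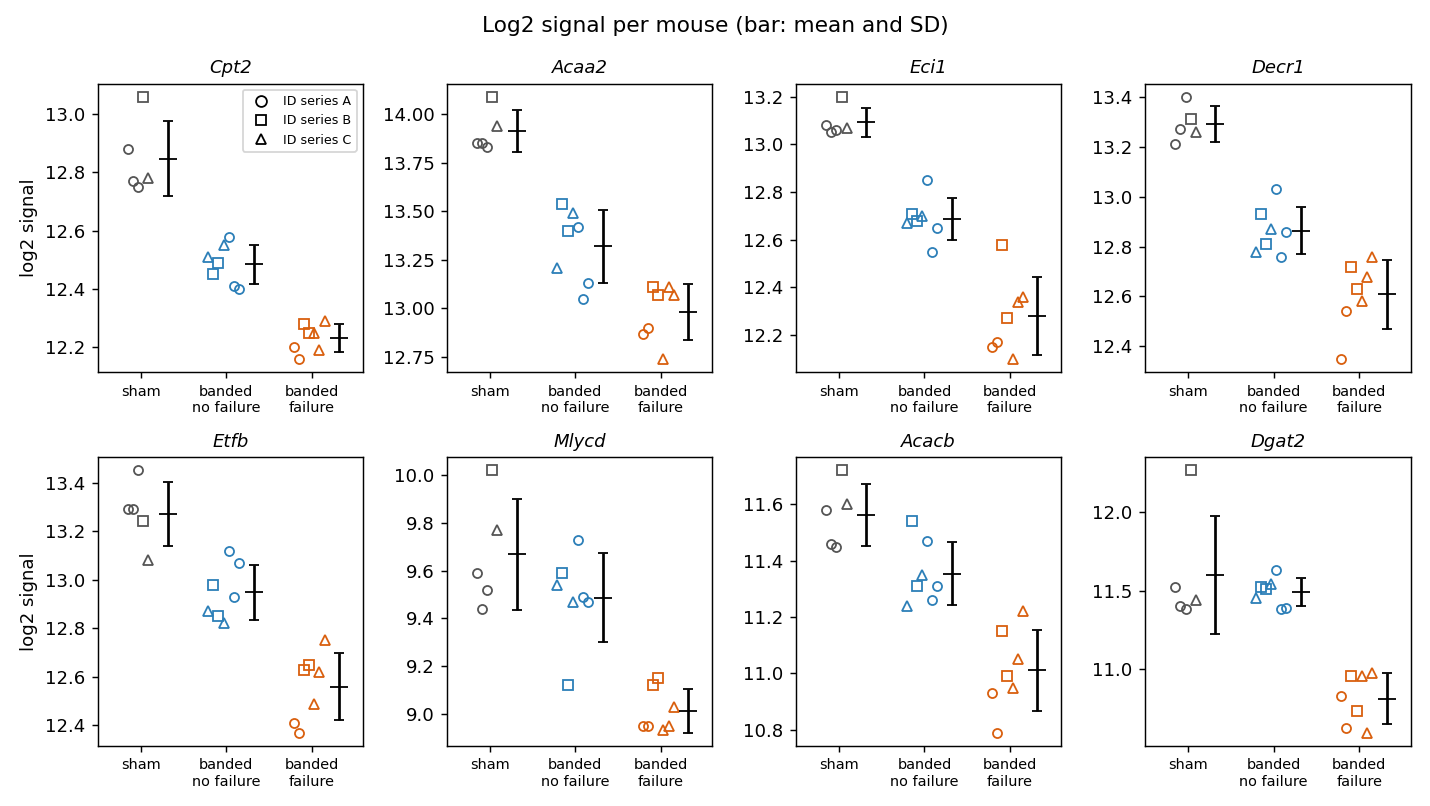
Log2 signal of each mouse for the 8 members that were lower with than without heart failure, by group, with marker shapes for the 3 series of animal names and bars for the mean and SD. Cpt2, Acacb, Decr1, Etfb and Dgat2 separate the banded groups fully, and Dgat2 lies near most sham values without heart failure and is lower in all 7 mice with it.

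The stretch of 250 bases before the start of the gene is shown for 5 members whose step or pattern is described above, as an example of what lies upstream of them. RefSeq's table for GRCm38.p6 held 27 of the 35 members, 25 of them measured. Cpt2 (chr4:107923590-107923839, minus strand), Eci1 (chr17:24426433-24426682, plus strand) and Etfb (chr7:43443822-43444071, plus strand) are 3 of the 8 members lower with than without heart failure. Acadm (chr3:153944644-153944893, minus strand) and Etfdh (chr3:79628768-79629017, minus strand) hold the rarer motifs. Each is written 5′ to 3′ on the gene's strand, with the matches in capitals: GGGCGGG (GC box) in Cpt2 and Eci1, CCAAT or its reverse ATTGG in Etfb and Etfdh, AAGGTCA read on the opposite strand as TGACCTT in Acadm, and the NRF1 motif, which reads the same on both strands, in Etfdh.
Cpt2: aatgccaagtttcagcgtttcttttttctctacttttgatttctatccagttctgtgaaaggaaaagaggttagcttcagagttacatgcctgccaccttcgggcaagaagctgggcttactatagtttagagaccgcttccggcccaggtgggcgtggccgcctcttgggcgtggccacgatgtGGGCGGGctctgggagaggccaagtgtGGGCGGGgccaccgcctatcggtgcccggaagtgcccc
Eci1: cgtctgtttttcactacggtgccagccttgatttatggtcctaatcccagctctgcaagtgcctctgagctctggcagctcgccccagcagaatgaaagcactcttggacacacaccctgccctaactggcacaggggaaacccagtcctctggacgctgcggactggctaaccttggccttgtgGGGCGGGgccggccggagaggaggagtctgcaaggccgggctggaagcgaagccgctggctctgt
Etfb: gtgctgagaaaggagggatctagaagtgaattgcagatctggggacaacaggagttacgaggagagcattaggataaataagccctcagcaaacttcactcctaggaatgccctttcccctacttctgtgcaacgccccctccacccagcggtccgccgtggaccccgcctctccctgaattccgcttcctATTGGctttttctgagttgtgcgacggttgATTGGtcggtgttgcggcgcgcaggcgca
Acadm: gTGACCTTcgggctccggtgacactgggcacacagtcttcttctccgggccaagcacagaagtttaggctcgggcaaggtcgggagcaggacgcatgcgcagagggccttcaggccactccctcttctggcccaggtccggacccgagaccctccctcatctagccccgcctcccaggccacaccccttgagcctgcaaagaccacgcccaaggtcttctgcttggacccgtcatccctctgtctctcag
Etfdh: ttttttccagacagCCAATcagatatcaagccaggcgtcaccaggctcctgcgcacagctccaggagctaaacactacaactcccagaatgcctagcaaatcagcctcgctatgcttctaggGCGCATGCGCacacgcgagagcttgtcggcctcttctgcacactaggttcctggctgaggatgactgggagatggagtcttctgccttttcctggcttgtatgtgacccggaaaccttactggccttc
Both strands were searched in these windows and in all 32851 windows of the table. GGGCGGG was in 15 of the 29 windows of measured members (51.7%) and in 23.4% of all windows. CCAAT was in 12 of 29 (41.4%) and in 33.8% of all. AAGGTCA, the core to which estrogen-related receptors bind, was in 1 of 29, that of Acadm, against 4.08% of all windows, and its longer form TNAAGGTCA, which contains it, in 0 of 29 against 1.14%. The direct repeat bound by PPAR with RXR was in 0 of 29 and in 0.0335% of all windows. The NRF1 motif was in 1 of 29, that of Etfdh, and in 0.782% of all. A match only says that the letters are there.

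Ucp3, the uncoupling protein of muscle mitochondria, which is induced by fatty acids, fell with heart failure by 1.02 ± 0.32, or 2.03-fold (limma adjusted p = 0.0162). The sham mice were far apart, at 8.85, 7.96, 7.70, 9.58 and 8.34, and the mice with heart failure ran from 7.01 to 8.06 (median 7.40), overlapping sham. Without sham mouse 4, at 9.58, the fall was 0.75 ± 0.30 and no longer passed (adjusted p = 0.0532). The call was also lost on the mean of its 2 probe sets (-0.83, adjusted p = 0.0513). With the actin difference as a covariate it was lost as well (-1.04, adjusted p = 0.109). The second probe set of Ucp3 was not called with heart failure, at -0.63 (adjusted p = 0.175). In banded mice without heart failure the difference was -0.66 ± 0.32 (adjusted p = 0.161).

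Among the triglyceride genes, 1 of 5 was lower and 1 higher than in sham without heart failure, and 2 of 5 were lower with it. The shares of all genes were 6.56% lower and 10.9% higher without heart failure, and 18.9% lower with it. Dgat2, which adds the last fatty acid to make triglyceride, was near the sham level without heart failure and low with it. Its values were 11.52, 11.40, 11.38, 12.26 and 11.44 in sham, 11.38 to 11.63 (median 11.51) without and 10.60 to 10.98 (median 10.83) with heart failure. All 7 mice with heart failure were below all 12 others by at least the gap from 10.98 to 11.38. The fall was 0.79 ± 0.12 against sham (adjusted p = 6.72e-05) and 0.68 ± 0.11, or 1.6-fold, between the banded groups (adjusted p = 0.0027). Without sham mouse 4 the fall against sham was 0.62 ± 0.08 (adjusted p = 1.08e-05). Without heart failure the difference from sham was -0.11 ± 0.12 (adjusted p = 0.569).

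Dgat1, the other enzyme for that last step, was the member called higher in banded mice without heart failure, by 0.26 ± 0.08 (adjusted p = 0.0224). Its sham values were 8.03, 8.14, 8.10, 7.86 and 7.77, and those banded mice had 8.14 to 8.31 (median 8.26), touching the top of the sham range. With arrays set to equal medians the call was lost (0.22, adjusted p = 0.0549), as it was without sham mouse 5 (0.21, adjusted p = 0.0595). With heart failure the difference was 0.15 ± 0.08 (adjusted p = 0.128), but with the array set as a block Dgat1 was called higher there too (0.24 ± 0.08, adjusted p = 0.0248), as in the low set alone (0.31 ± 0.10, adjusted p = 0.0331).

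Plin5, a coat protein of lipid droplets at the mitochondria, fell by 0.53 ± 0.16 without (adjusted p = 0.0318) and by 0.71 ± 0.16 with heart failure (adjusted p = 0.00228). Sham mice had 12.63, 12.52, 12.57, 11.99 and 12.22, the lower pair again from the low 18S set. After banding it lay at 11.54 to 12.03 (median 11.93) without heart failure and at 11.20 to 12.46 (median 11.60) with it, where mouse 5 alone exceeded 11.71. In the low set alone neither call stood (-0.36, adjusted p = 0.489, and -0.43, adjusted p = 0.212), and the call without heart failure was also lost without any 1 of sham mice 1 to 3 (for example -0.47 and adjusted p = 0.0869 without mouse 1). The second probe set of Plin5 was called in neither comparison, at -0.18 (adjusted p = 0.462) and -0.34 (adjusted p = 0.0916). Pnpla2 and Lipe, the lipases that break stored triglyceride down, were not called, at 0.13 ± 0.15 and -0.25 ± 0.27 without and 0.01 ± 0.15 and -0.26 ± 0.27 with heart failure. Of the adipocyte markers, 6 of 9 were measured, with a summed signal of 7.62 to 8.26 in sham, 7.53 to 8.29 without and 7.45 to 8.38 with heart failure. Retn, Lep and Cidec were at or under the filter level on all 19 arrays, and the part of the others in these values was not tested.

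**Figure D3:**
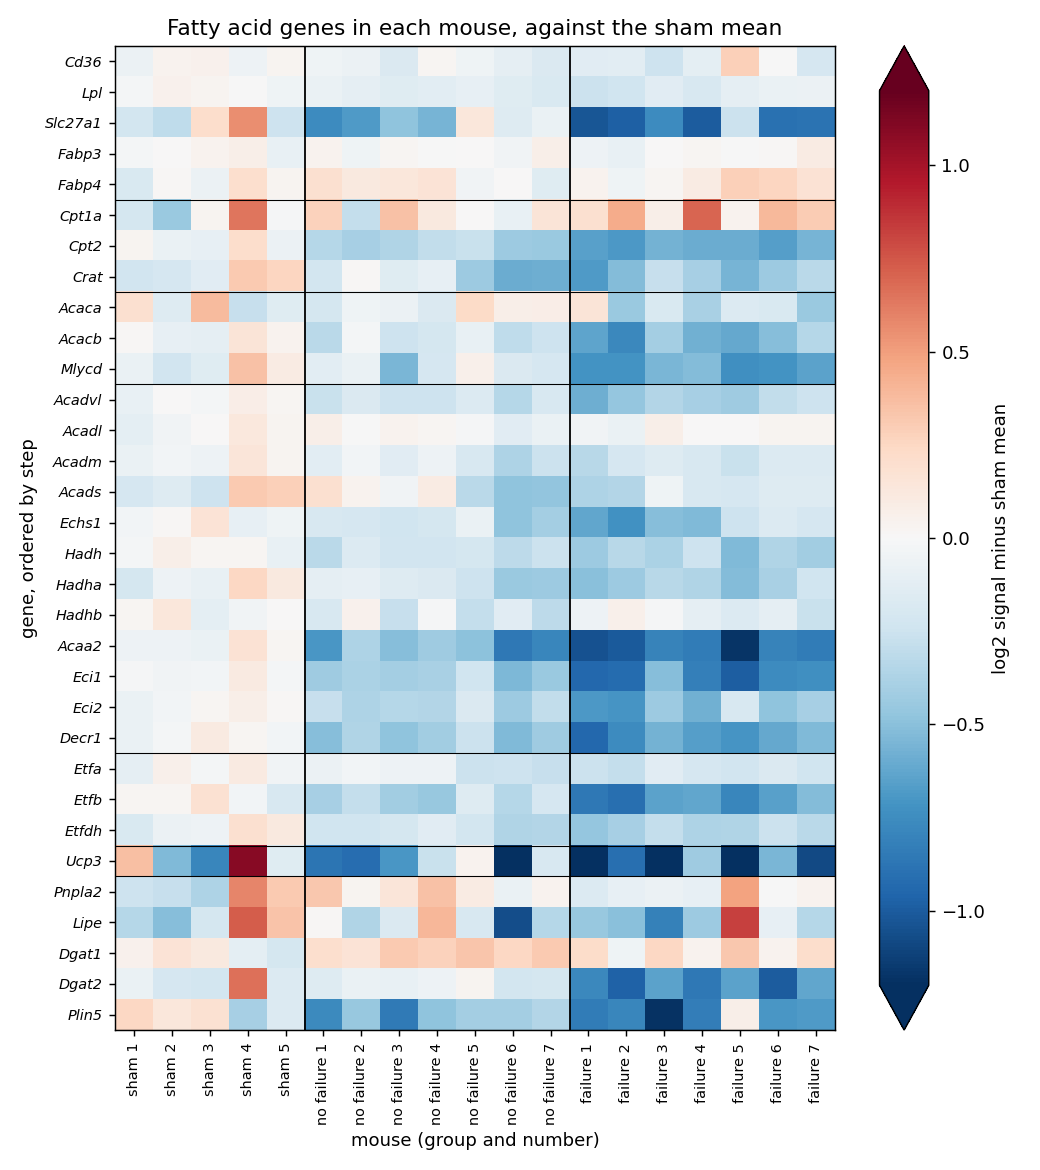
Log2 signal minus the sham mean for each measured member (rows, ordered by step) in each mouse (columns, by group); the colour bar is in log2 units, and values beyond its ends take the end colour. The rows for Acaa2, Eci1, Decr1 and Etfb turn bluer from sham to banded mice without and then with heart failure, sham mouse 4 is red in many rows, and mouse 5 with heart failure is red for Pnpla2 and Lipe.

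The extreme values of the groups fell unevenly on single mice. Sham mouse 4 had the highest sham value in 22 of the 32 members, and sham mouse 1 the lowest in 11. Without heart failure, banded mouse 6 had the lowest of its group in 16, and mouse 5 the highest in 13. With heart failure several mice shared the extremes: mouse 7 was highest in 9 members, mouse 2 lowest in 10 and mouse 1 lowest in 9. Mouse 5 with heart failure was highest in 8 (Cd36, Slc27a1, Fabp4, Eci2, Pnpla2, Lipe, Dgat1 and Plin5). It was lowest in 6 (Cpt1a, Mlycd, Hadh, Hadha, Acaa2 and Eci1). How often chance gives such counts was not tested. Leaving out each mouse in turn gave 9 to 13 lower members without heart failure, 20 to 22 with it and 8 to 10 between the banded groups. The spread was largest for Ucp3, Lipe, Slc27a1 and Plin5, with pooled SDs of 0.58, 0.49, 0.32 and 0.30.

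Within each of the 3 series of animal names, each called fall kept its sign. The calls were made on these same arrays, so this is no separate support for them. For members whose groups do not overlap, the sign within each series was fixed in advance. All 10 members called lower without heart failure, all 21 called lower with it and all 8 called lower between the banded groups had a difference below 0 in series A, B and C. The median over the 32 members with heart failure against sham was -0.38, -0.55 and -0.35 in the 3 series, and without heart failure it was -0.21, -0.32 and -0.17. Series B and C hold 1 sham mouse each, so no test was made within them. In series A the mice with heart failure were in the low 18S set and all others in the high set. Heart failure and array set cannot be told apart within that series. With the series as a block, 18, 22 and 11 members were lower in the 3 comparisons, beside 8.2%, 19% and 6.93% of all genes. With the 18S array set as a block 16, 22 and 12 were lower, beside 8.43%, 15.2% and 5.03%. Within the low 18S set alone, with 2 sham mice, 4, 19 and 5 were lower, beside 1.24%, 11.3% and 0.773%. With the actin difference as a covariate 11, 22 and 10 were, beside 3.31%, 10.3% and 7.3%. Without heart failure the array set block added Crat, Acacb, Acadm, Acads, Hadha and Etfa to the lower members, and the low set alone kept Cpt2, Acaa2, Decr1 and Etfdh. Hadh, Etfb and Plin5 lost that call with the actin covariate.

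**Figure D4:**
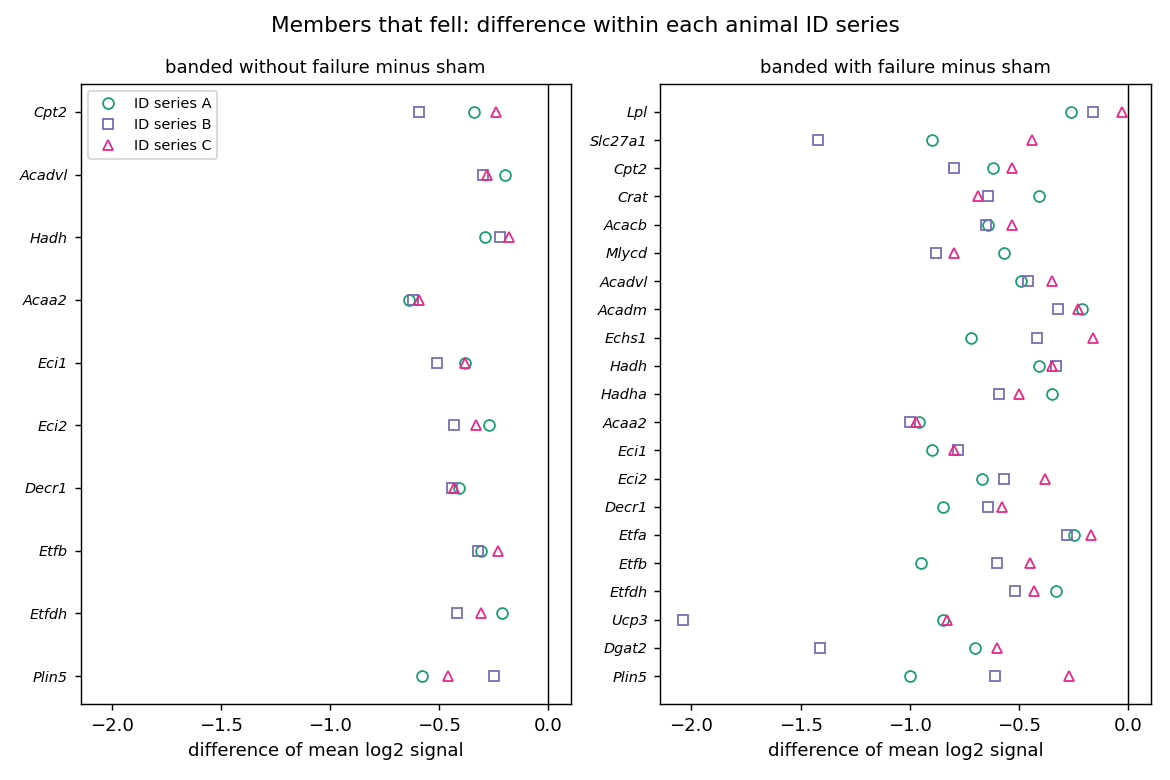
Difference of mean log2 signal from sham within each series of animal names (shapes) for the members called lower without (left, 10 members) and with heart failure (right, 21 members). All points lie left of 0, and the farthest to the left is Ucp3 in series B, at -2.04. The members shown were called on these same arrays.

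The other genes of the pathway were taken from 5 lists with 82 tested genes. Without heart failure 15 of these were lower and 4 higher than in sham, with heart failure 32 lower and 7 higher, and between the banded groups 13 lower and 1 higher. The lower shares were 18.3%, 39% and 15.9%, beside 6.56%, 18.9% and 5.65% of all genes, and the higher ones 4.88%, 8.54% and 1.22%, beside 10.9%, 20.4% and 3.83%. Their median differences, -0.05, -0.13 and -0.06, were closer to the all-gene medians than those of the members. Among 17 further genes of mitochondrial oxidation, 7 and 8 were lower than in sham (41.2% and 47.1%, beside 6.56% and 18.9% of all genes). Slc25a20, the carrier that swaps acylcarnitine for carnitine across the inner membrane, fell by 0.65 ± 0.08 and 0.76 ± 0.08 without and with heart failure (adjusted p = 2.41e-05 and 6.81e-07). Ech1, an auxiliary enzyme for unsaturated fatty acids, fell by 0.51 ± 0.06 and 0.75 ± 0.06 (adjusted p = 4.38e-05 and 1.12e-07). Bdh1, the ketone body enzyme of this list, rose by 1.22 ± 0.15 and 1.46 ± 0.15 (adjusted p = 2.75e-05 and 6.4e-07). Echdc3 and Hsd17b10 were lower with than without heart failure, with differences of -0.36 ± 0.07 and -0.26 ± 0.06.

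Of 12 peroxisomal genes, 4 were lower without and 7 with heart failure (33.3% and 58.3%, beside 6.56% and 18.9% of all genes). Ehhadh, the bifunctional enzyme of the peroxisome, fell by 0.53 ± 0.15 and 0.73 ± 0.15 (adjusted p = 0.0188 and 0.000754), and Hsd17b4, which catalyses the same steps on other substrates, by 0.47 ± 0.08 and 0.50 ± 0.08. Pecr and Amacr were lower with than without heart failure, each with a difference of -0.33. Abcd4, a transporter placed with this list by family, rose by 0.65 ± 0.15 with heart failure (adjusted p = 0.00194) and by 0.47 ± 0.13 between the banded groups.

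Of 13 further uptake and activation genes, 1 was lower and 2 higher without heart failure, and 5 lower and 1 higher with it. The first counts, 7.69% and 15.4%, lie near those of all genes (6.56% and 10.9%); the second are 38.5% and 7.69%, beside 18.9% and 20.4%. Acsl6, an acyl-CoA synthetase, fell by 0.77 ± 0.14 with heart failure (adjusted p = 0.000256) and by 0.57 ± 0.13 between the banded groups, while Acsl5, another, rose by 0.33 ± 0.08 and 0.44 ± 0.08 against sham. Vldlr, a receptor for triglyceride-rich lipoproteins, fell by 0.65 ± 0.15 with heart failure. Without heart failure Dbi, the acyl-CoA binding protein, fell by 0.34 ± 0.07 and Lmf1, needed for lipase maturation, rose by 0.34 ± 0.09.

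Among 23 further triglyceride genes, limma called 3 lower and 0 higher without heart failure, and 1 was higher at an unadjusted p under 0.05. With heart failure 10 were lower and 2 higher, and between the banded groups 6 were lower. The lower shares were 13%, 43.5% and 26.1%, beside 6.56%, 18.9% and 5.65% of all genes. The higher shares against sham were 0% and 8.7%, beside 10.9% and 20.4%. Fitm1 and Fitm2, proteins of the endoplasmic reticulum that help lipid droplets form, had the largest called falls against sham. Fitm1 fell by 0.56 ± 0.11, 1.13 ± 0.11 and 0.57 ± 0.10 in the 3 comparisons (adjusted p = 0.00167, 3.78e-07 and 0.00347), and Fitm2 by 0.60 ± 0.10 without heart failure (adjusted p = 0.000362) and 2-fold with it (adjusted p = 3.71e-07). Agpat2, an acyltransferase of the same route, was lower with than without heart failure (-0.40 ± 0.10), while Agpat4 and Gpat4 rose by 0.46 ± 0.14 and 0.42 ± 0.14 against sham. Fatty acid synthesis, with 17 genes, had 1 call without heart failure, a higher one (5.88%, beside 10.9% of all genes). With heart failure it had 2 in each direction (11.8% each, beside 18.9% lower and 20.4% higher of all genes). Fads3, of the desaturase family, rose by 0.43 ± 0.10 and 0.59 ± 0.10, Hacd1 rose by 0.25 ± 0.08, and Hacd3 and Tecr fell by 0.32 ± 0.11 and 0.17 ± 0.06 with heart failure. Tecr was also lower with than without heart failure (-0.19 ± 0.05).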

How the data were processed

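Per the submitters' processing notes the deposited log2 values were made with GCRMA (version not given in the sources used here). This method corrects background by probe sequence and draws dim probe sets to a common floor, so their differences are compressed. The deposited log2 values ran from 2.19 to 16.77, with array medians of 2.85 to 2.99, and 50.5% were under 3. Arrays have no read depth; their number limits the precision. Probe sets were named by the platform annotation: of 45101, 34958 had 1 symbol, 932 several and 9211 were not listed. Per gene the probe set with the highest mean was used, and 10732 genes passed the filter (log2 above 4, 5 arrays or more). Groups were compared in 1 limma fit over 19 arrays (limma 3.58.1, R 4.3.3, no term beside group), adjusted by Benjamini-Hochberg over these genes and a threshold of 0.05. A difference is between group means of log2 values, ± the standard error of the fit. The fit was tested on simulated data. Alternatives were other filters, probe set rules, scalings, variance models, the array set, the series of animal names and the actin difference as terms, and each mouse left out. Summed marker signals are log2 of the summed linear values. Members past the threshold anywhere were described with values, and of other pathway genes at most the 2 with the largest called change in each direction per list and comparison. The members and lists were chosen with earlier results of these data known. Promoter windows came from RefSeq (GRCm38.p6).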

Additional observations from a re-analysis of the deposited data

Results flagged for a closer look

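Within a group, 5 of 96 sets of values (32 members in 3 groups) had 1 mouse far from the others; chance alone gives such a gap in about 1 of 20 sets. Of these, 3 came from mouse 5 with heart failure. It had 9.12 for Slc27a1, with the next mouse at 8.62, 12.01 for Pnpla2, with the next at 11.57, and 12.46 for Plin5, with the next at 11.71. Its summed adipocyte marker signal was 8.34, within the group's range of 7.45 to 8.38, with Adipoq at 4.16 (group range 2.19 to 6.89) and Pparg at 8.16, the highest of the group. It also had the lowest actin difference of the 19 arrays (0.661) and the highest 18S signal of its group (7.62). Its summed endothelial signal was 13.73 (group range 13.48 to 13.88), and that of macrophages and leukocytes 13.72 (13.24 to 13.88). Single markers went both ways. Kdr (9.07), Tek, Cldn5 and Emcn were lowest of the group in this mouse, and Pecam1, Flt1 and Esam highest. Cd14 (9.34), Adgre1 (9.65) and Lyz2 (12.39) were highest, and Cd68, Csf1r and Mrc1 lowest. The part of these measures in its member values was not tested. The other 2 came from sham mouse 4, with 13.20 for Eci1 (next 13.08) and 12.26 for Dgat2 (next 11.52). The part of these single mice is given beside the results they touch.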

How the results depend on the processing

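No paired analysis was possible because the labels give no replicate numbers that the groups share. Of the differences of single members under the alternatives, 2766 kept their side of the threshold and their sign, 40 lost it, 73 gained it and 1 reversed: Etfdh without heart failure, 0.09 (adjusted p = 0.767) on its probe set of largest variance. No alternative ended the calls of Cpt2, Acaa2 and Decr1 without heart failure, of 14 of the 21 with it, or of Cpt2, Mlycd, Eci1 and Dgat2 between the banded groups. Members lower without heart failure, 10 as reported, became 16 with equal array medians, 16 with the array set as a block, 18 with the series of animal names as a block and 4 in the low 18S set; between the banded groups the low set gave 5 in place of 8. The low set holds fewer arrays, and the cause of these differences was not tested. All genes called numbered 1871, 4219 and 1017 in the 3 comparisons; in the low set they numbered 343, 2670 and 149, and with the actin covariate 1199 and 2703 against sham. Leaving out single mice gave 1188 to 2200, 3537 to 4387 and 508 to 1146; the lowest were 1188 without sham mouse 2, and 508, 672 and 599 without banded mice 5 and 6 without heart failure and mouse 2 with it. Of the calls against sham, 37.6% and 48% were lower; quantile normalization made this 50.7% and 59.1%, equal medians 54.9% and 62.1%. Limits are 5 sham mice, no stated criterion for heart failure, and values at the compressed floor for dim probe sets.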

Other observations

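Between the 18S array sets, 6 members (Fabp4, Crat, Acadl, Acadm, Acads and Hadha) were higher on every low-set array than on every high-set array, both within sham and within banded mice without heart failure, and Plin5 was lower on every one. For Acads the difference between the sets was 0.50 in each of these groups, and for Fabp4 it was 0.20 in sham and 0.22 in banded mice. In these 2 groups the high set was made up of the mice of series A and the low set of those of series B and C. Array set and series cannot be told apart there. All mice with heart failure were in the low set.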
